A study of Mus musculus with 4 samples.

Results

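The 10 genes described here are those that granulosa cells (GCs), the somatic cells around the oocyte, use to open the cumulus and release the egg at ovulation: Has2, Vcan, Tnfaip6, Ptx3, Adamts1, Ptgs2, Cebpa, Cebpb, Rgs2 and Snap25. They were named for their known role, by a rule that uses no measured value but was written with earlier results of these data known, and were found by matching Ensembl identifiers to mouse symbols. The count table held 55385 genes. All 10 were among them, and all 10 passed the filter on low counts that left 19259 genes for testing.

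The study asked whether neurotrophin-4 (NT-4), a growth factor of the nerve growth factor family that signals through the receptor TRKB, improves preantral follicles grown in vitro. RNA of GCs was sequenced in 4 libraries from follicles of Kunming mice, an outbred stock without an engineered allele, taken at 12 to 14 days of age and kept in culture for 6 days. The 2 Control libraries came from medium without NT-4 and the 2 NT4 libraries from medium with it, at the single dose that the study carried forward. The study describes the libraries of a group as coming from independent experiments, and how many follicles were pooled per library is not given in the sources used here.

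Both groups grew in medium with follicle-stimulating hormone (FSH). By the study's methods no luteinizing hormone (LH) or human chorionic gonadotropin (hCG), its usual stand-in, was listed in this medium, and hCG was added only in a later maturation step that these cells never entered. The cells were those left after the oocyte was taken out of its complex. No library of cells exposed to LH or hCG was analysed here, so levels can be given, but not how far a surge would raise them. The question for these genes was therefore which of them were already present without a surge, and whether NT-4 moved them.

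The surge of LH ends the growth of the follicle and starts ovulation. Mural GCs answer it through the LH receptor with EGF-like factors, and these act on the cumulus cells next to the oocyte, which then secrete a hyaluronan matrix, swell apart and are shed with the egg. Enzymes and cross-linkers of this matrix, prostaglandin synthesis, proteases and a set of transcription factors are switched on together in the hours before the follicle wall opens.

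The 4 libraries held totals of 49520092 to 78704020 counts, which corresponds to an estimated 12380023 to 19676005 read pairs at 4 counts each. Levels are given as CPM, counts scaled to the same library total, and, where genes are compared with each other, as TPM, counts per kilobase of exon on such a common total. Values of a group are listed in the order replicate 1, replicate 2. The GC label was borne out by its markers: 12 of 12 granulosa genes had a CPM of at least 1 in every library, with a summed level of 10826 to 17669 CPM. Oocyte markers reached that level in 8 of 10 genes (summed 71.5 to 102 CPM), theca and stroma markers in 10 of 10 (1114 to 1614 CPM) and leukocyte markers in 0 of 8 (1.44 to 3.37 CPM). The leukocyte marker Tyrobp was at 0 in all 4 libraries. In such bulk samples, fewer cells that carry a transcript and less transcript per cell cannot be told apart.

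Without a surge, the ovulatory genes spanned the whole range of expression. The levels are those of the bulk sample, and the part of theca and stroma cells in them was not tested. Of the 10 genes, 7 had a CPM of at least 1 in every library, where 55.3% of the protein-coding genes and 24.5% of all genes of the table did, and all 10 lay above the level of 3 read pairs in all 4 libraries. Rgs2 was the most abundant per length, with a mean of 376 TPM over the 4 libraries, followed by Cebpb at 122 TPM and Adamts1 at 79.8 TPM. These 3 genes stayed at or above percentile 86.4 of the protein-coding genes with a count in every library.

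A middle group was formed by Cebpa with a mean of 45.4 TPM and Vcan with 30.0 TPM. Tnfaip6 at 5.47 TPM and Ptgs2 at 5.18 TPM lay below the median of the protein-coding genes with a count in every library. The lowest were Has2 at 1.02 TPM, Snap25 at 0.339 TPM and Ptx3 at 0.279 TPM. Neighbours in this order whose ranges over the 4 libraries overlapped were Adamts1 and Cebpa, Cebpa and Vcan, Tnfaip6 and Ptgs2, and Snap25 and Ptx3. For the other 5 neighbouring pairs the ranges were separate, with the same order in all 4 libraries. Of the 4 matrix genes, Vcan lay between percentiles 69.7 and 73.9 of protein-coding genes with a count, Tnfaip6 between 34.7 and 40.6, Has2 between 18.5 and 24.6, and Ptx3 between 10.2 and 13.2.

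**Figure D1:**
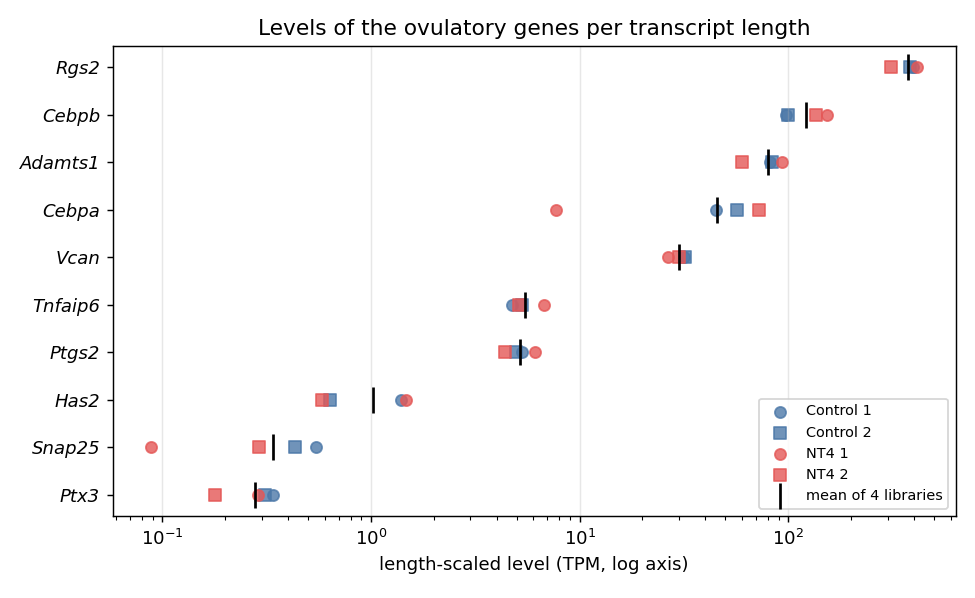
Level of each of the 10 genes in TPM on a log axis, with 1 point per library (blue Control, red NT4, circle for replicate 1, square for replicate 2) and a black bar at the mean of 4 libraries. Rgs2 lies highest at 376 TPM on average and Ptx3 lowest at 0.279 TPM, and the NT4 1 point of Cebpa stands far to the left of its other points.

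The start regions of the genes were read next, since surge signals reach many of these promoters through cyclic AMP and C/EBP factors. Sequences from 250 bases before to 50 bases after the start of each gene came from RefSeq on GRCm38.p6 and were matched for 8 of the 10 genes. Has2 and Snap25 were not matched. The 4 shown are the most abundant gene (Rgs2), the gene with the smallest p-value (Cebpb), and 2 low genes of prostaglandin and matrix synthesis (Ptgs2 and Tnfaip6). Each is written 5′ to 3′ on the strand of its gene. Capitals mark the letters TGACG (the core of the cyclic AMP response element, which reads CGTCA on the other strand), TTNNGNAA (C/EBP) and CACGTG (E-box).
Rgs2, chr1:144004100-144004399, minus strand: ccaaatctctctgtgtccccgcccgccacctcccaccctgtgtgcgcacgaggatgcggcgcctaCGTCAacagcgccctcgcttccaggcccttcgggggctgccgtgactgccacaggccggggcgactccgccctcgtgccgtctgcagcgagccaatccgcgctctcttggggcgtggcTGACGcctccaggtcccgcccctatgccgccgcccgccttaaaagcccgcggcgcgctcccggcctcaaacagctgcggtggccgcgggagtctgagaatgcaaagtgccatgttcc
Ptgs2, chr1:150099781-150100080, plus strand: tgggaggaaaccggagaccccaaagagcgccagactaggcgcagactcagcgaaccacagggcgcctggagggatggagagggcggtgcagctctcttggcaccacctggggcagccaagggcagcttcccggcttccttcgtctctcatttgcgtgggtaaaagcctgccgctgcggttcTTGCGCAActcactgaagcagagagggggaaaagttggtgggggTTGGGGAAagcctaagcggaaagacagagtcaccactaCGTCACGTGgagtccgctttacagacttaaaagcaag
Tnfaip6, chr2:52037863-52038162, plus strand: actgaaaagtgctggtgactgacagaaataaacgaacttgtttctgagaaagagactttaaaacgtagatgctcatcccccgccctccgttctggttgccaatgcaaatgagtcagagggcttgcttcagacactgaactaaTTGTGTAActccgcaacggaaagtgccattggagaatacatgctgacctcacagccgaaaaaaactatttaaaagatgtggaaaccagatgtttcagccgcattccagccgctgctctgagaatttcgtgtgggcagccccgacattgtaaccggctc
Cebpb, chr2:167688665-167688964, plus strand: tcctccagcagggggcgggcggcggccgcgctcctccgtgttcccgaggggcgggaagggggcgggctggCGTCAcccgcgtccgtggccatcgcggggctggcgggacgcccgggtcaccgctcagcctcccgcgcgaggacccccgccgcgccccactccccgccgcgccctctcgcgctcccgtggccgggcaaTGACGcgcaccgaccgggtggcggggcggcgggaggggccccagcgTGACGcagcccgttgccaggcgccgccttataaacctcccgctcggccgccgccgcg

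The core TGACG was found in 4 of the 8 promoters, 3 times in Cebpb, 2 times in Rgs2, and 1 time each in Ptgs2 and Adamts1. It occurred in 20.8% of all 32851 promoters of the same length. The C/EBP letters were found in 3 of the 8, namely Ptgs2 (2 matches), Tnfaip6 (1) and Ptx3 (1), beside 40.7% of all promoters. An E-box was found in Ptgs2 alone, where it shares letters with TGACG, beside 7.15% of all promoters. The complete element TGACGTCA was in 0 of the 8 and in 1.79% of all promoters. The GC box GGGCGG was in 6 of the 8 (35.7% of all) and the TATA box TATAAA in 3 of the 8 (13.6% of all). All motifs were searched on both strands, and a match describes letters, not a site that is in use.

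The matrix genes were compared first. Has2 makes hyaluronan, the backbone of the expanded cumulus (ENSMUSG00000022367, GRCm38 chromosome 15, 56665627 to 56694539, minus strand). The Control libraries held 2.19 and 1.003 CPM, the NT4 libraries 2.33 and 0.999 CPM. The libraries numbered 1 were high and those numbered 2 were low in both groups, and the groups overlapped. Replicate 1 exceeded replicate 2 by 2.18 times in Control and by 2.33 times in NT4, and the values rested on about 28, 18, 36 and 19 read pairs. The log2 fold change of NT4 over Control was 0.06 (SE 0.59). Has2os, an antisense gene that shares 182 exon bases with Has2, held 4, 0, 0 and 16 counts in these libraries, and whether the counting used strand is not stated. Amh, a granulosa product of growing follicles, was likewise higher in the libraries numbered 1. It was at 299 and 391 CPM there, and at 151 and 91.5 CPM in those numbered 2. Of the 12 granulosa markers, Amhr2 and Kitl also went this way in both groups. The others, among them Inha, Inhba, Inhbb, Fshr and Cyp19a1, were lower in the libraries numbered 1. Summed, the 12 markers held 12496 and 10826 CPM in the libraries numbered 1, and 15823 and 17669 CPM in those numbered 2. The part of these differences in the Has2 values was not tested.

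Vcan encodes versican, a large proteoglycan that binds hyaluronan and is cut by Adamts1 (ENSMUSG00000021614, chromosome 13, 89655312 to 89742509, minus strand). Vcan reached 169.7 and 172.7 CPM in the Control libraries, and 143.6 and 174.6 CPM in the NT4 libraries. The groups overlapped, with 1 NT4 library below and 1 above both Control libraries. Its log2 fold change was −0.11 (SE 0.14), within the spread of the NT4 libraries, and 0.021 without NT4 1.

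Tnfaip6 encodes the protein that moves heavy chains of inter-alpha-trypsin inhibitor onto hyaluronan (ENSMUSG00000053475, chromosome 2, 52038009 to 52056686, plus strand). Without NT-4, 3.01 and 3.38 CPM were measured, and with it 4.33 and 3.54 CPM. Both NT4 libraries lay above both Control libraries, NT4 2 only narrowly. The log2 fold change was 0.30 (SE 0.26), or 0.14 without NT4 1 and 0.44 without NT4 2.

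Ptx3 encodes pentraxin 3, which cross-links those heavy chains (ENSMUSG00000027832, chromosome 3, 66219910 to 66225805, plus strand). Ptx3 was found at 0.339 and 0.312 CPM in Control and at 0.289 and 0.195 CPM in NT4. Both NT4 libraries lay below both Control libraries, but these are 17, 23, 18 and 15 counts, or about 4 to 6 read pairs, against a floor of 0.156 to 0.239 CPM for 3 read pairs. The 95% Poisson intervals, which cover counting error only, ran from 0.0869 to 0.816 CPM in Control 1 and from 0.0566 to 0.531 CPM in NT4 2. A difference was not detectable at this depth (log2 fold change −0.43, SE 0.74). With 1 library left out, the log2 fold change of Ptx3 ran from −0.74 to −0.17.

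Adamts1, the secreted protease that cleaves versican, was among the abundant genes (ENSMUSG00000022893, chromosome 16, 85793827 to 85803113, minus strand). The Control libraries held 160.7 and 166.6 CPM, the NT4 libraries 186.2 and 128.9 CPM. The NT4 libraries lay on either side of the Control libraries. The log2 fold change was −0.05 (SE 0.20), or 0.18 without NT4 2 and −0.35 without NT4 1.

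Ptgs2, the inducible cyclooxygenase that starts prostaglandin synthesis in the ovulating follicle, was present at a low and even level (ENSMUSG00000032487, chromosome 1, 150100031 to 150108227, plus strand). Ptgs2 stood at 8.97 and 8.52 CPM in the Control libraries and at 10.4 and 8.17 CPM in the NT4 libraries. The groups overlapped, with NT4 1 highest and NT4 2 lowest. Its log2 fold change was 0.09 (SE 0.20), or −0.10 without NT4 1.

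**Figure D2:**
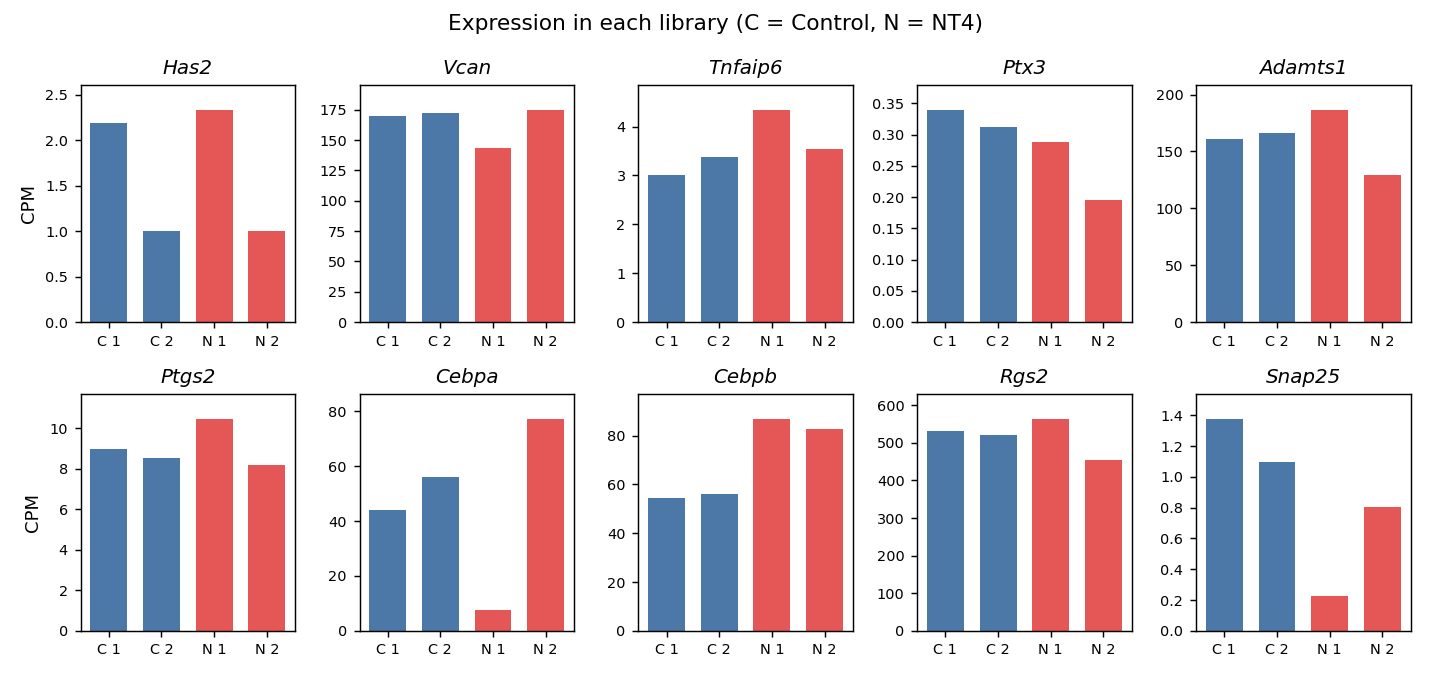
Expression of each of the 10 genes in CPM, with 1 bar per library (C 1 and C 2 Control in blue, N 1 and N 2 NT4 in red), each panel on its own axis from 0. The red bars both stand above the blue bars in Cebpb (82.6 and 86.7 against 54.2 and 56.1 CPM) and Tnfaip6, and both below them in Snap25 and Ptx3, and Cebpa is low in NT4 1 alone.

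Cebpb was the gene that differed most clearly between the groups. It encodes C/EBP beta, a leucine zipper transcription factor that GCs need for ovulation and for turning into luteal cells (ENSMUSG00000056501, chromosome 2, 167688915 to 167690418, plus strand). The Control libraries held 54.2 and 56.1 CPM, the NT4 libraries 86.7 and 82.6 CPM. Both NT4 libraries lay far above both Control libraries relative to the spread within the groups (55.2 ± 1.34 CPM against 84.7 ± 2.93 CPM, SD, n = 2).

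The ratio of NT4 to Control for Cebpb was 1.53, a log2 fold change of 0.62 (SE 0.12). Its unadjusted p of 0.00272 in edgeR's quasi-likelihood test ranked 42 among the 19259 genes, and after Benjamini-Hochberg adjustment over all of them it did not pass (adjusted p = 0.99994). The DESeq2 Wald test gave Cebpb an adjusted p of 0.0198, where that test called 0.338% of the genes, and edgeR's exact test gave 0.250. With any 1 library left out, the log2 fold change of Cebpb stayed between 0.58 and 0.65.

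Cebpb shares 312 exon bases with Tmem189 on the other strand. That gene was at 45.0 and 53.8 CPM in Control and at 25.2 and 42.1 CPM in NT4, so it went the opposite way, and how reads in the shared bases were split is not stated. Of the 10 theca and stroma markers, all 10 had a positive log2 fold change like Cebpb, though 0 passed the adjustment. Insl3, Col1a2, Ptch1 and Gli1 overlapped between the groups. In the others both NT4 libraries lay above both Control libraries, as in 13.4% of all genes tested. The 10 markers summed to 1137 and 1114 CPM in the Control libraries and to 1614 and 1310 CPM in the NT4 libraries. Of these 10, Dcn (log2 fold change 0.39) and Acta2 (0.44) had an unadjusted p under 0.05, as did 1.99% of all genes, and both had an edgeR adjusted p of 0.99994. No defining marker of the list was at 0 in any library, and the part of such cells in the difference of Cebpb was not tested. Among 6 endothelium markers, log2 fold changes were positive for 4 and negative for 2, Kdr (−1.78, SE 1.54) and Pecam1 (−0.53, SE 0.54). Of the 6, 1 had an unadjusted p under 0.05, Tek, beside 1.99% of all genes. Tek was at 0.159 and 0.190 CPM in Control and at 0.946 and 0.441 CPM in NT4, on 8, 14, 59 and 34 counts. Its log2 fold change was 1.97 (SE 0.71, edgeR adjusted p = 0.99994).

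Cebpa, the related factor C/EBP alpha that acts with Cebpb in ovulating GCs, behaved otherwise (ENSMUSG00000034957, chromosome 7, 35119293 to 35121928, plus strand). Cebpa measured 43.9 and 56.2 CPM in the Control libraries, but 7.62 CPM in NT4 1 and 77.1 CPM in NT4 2. The lowest and the highest library were both NT4 libraries, 10.1 times apart, and the Control libraries lay between them. This ratio of highest to lowest stood at percentile 99.5 of the 14314 tested genes that averaged at least 1 CPM and were above 0 in every library, whose median ratio was 1.31.

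The low value of Cebpa in NT4 1 rested on about 119 read pairs (95% Poisson interval 6.33 to 9.14 CPM), so it lay beyond counting error. Over all 4 libraries the log2 fold change was −0.24 (SE 0.94), while limma voom put it at −0.96 and the fit with the replicate number as a block at −1.004. It was 0.62 without NT4 1 (edgeR adjusted p = 0.910) and −2.72 without NT4 2 (edgeR adjusted p = 0.253), so the direction rested on which NT4 library was kept. The antisense gene Gm45091, which shares 51 exon bases with Cebpa, held 16 to 41 counts. The neighbouring family gene Cebpg was even, at 32.8, 32.9, 33.4 and 31.0 CPM in the same libraries.

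Rgs2, a regulator of G-protein signalling that shortens signals from Gq-coupled receptors, was the most abundant of the 10 (ENSMUSG00000026360, chromosome 1, 143999338 to 144004161, minus strand). The Control libraries held 532.6 and 520.6 CPM, the NT4 libraries 563.3 and 454.2 CPM. The NT4 libraries were the highest and the lowest, and the groups overlapped. Its log2 fold change was −0.05 (SE 0.14), or 0.10 without NT4 2. Per length it stood between percentiles 98.0 and 98.5 of protein-coding genes.

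Snap25 encodes a membrane fusion protein of regulated secretion, best known from synapses and used by cumulus cells during ovulation (ENSMUSG00000027273, chromosome 2, 136713453 to 136782428, plus strand). Snap25 was measured at 1.37 and 1.10 CPM in Control and at 0.225 and 0.804 CPM in NT4. Both NT4 libraries lay below both Control libraries, NT4 1 by far, on about 17, 20, 4 and 16 read pairs. The log2 fold change was −1.25 (SE 0.68). It was −2.45 without NT4 2 and −0.62 without NT4 1, so its size rested on NT4 1. Among the 6 neuron markers, Snap25 included, log2 fold changes were positive for 2, Tubb3 (0.09) and Rbfox3 (0.31), and negative for 4, with Syn1 at −0.04. Map2 alone had an unadjusted p under 0.05, as did 1.99% of all genes (edgeR adjusted p = 0.99994). Map2 was at 112 and 74.7 CPM in Control and at 51.3 and 63.3 CPM in NT4. It made up most of the summed level of the list, which was 123 and 85.1 CPM in the Control libraries and 60.3 and 75.9 CPM in the NT4 libraries, and the part of this in the Snap25 values was not tested.

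Of the 10 genes, 0 passed an adjusted p of 0.05 in edgeR's quasi-likelihood test, as did 0 of the 19259 genes (0%), and each had an adjusted p of 0.99994. Over all genes the DESeq2 Wald test called 65, edgeR's exact test 59 and limma voom 0. At an unadjusted p under 0.05, 1 of the 10 was called, Cebpb, beside 383 genes or 1.99% of those tested. Without NT4 1 this count was 3 (Adamts1, Cebpa and Cebpb) beside 4.24% of the genes, and without NT4 2 it was 3 (Cebpa, Cebpb and Snap25) beside 3.63%. The study's criterion of a fold above 2 or below 0.5 at that p was met by 0 of the 10, and by 1.08% of all genes. Without NT4 2 it was met by 2 of the 10, Cebpa and Snap25, and by 392 of 20287 genes. The groups did not overlap for 4 of the 10, namely Cebpb and Tnfaip6 with NT4 above, and Snap25 and Ptx3 with NT4 below. For all genes tested that share was 26.0%, made up of 13.4% with NT4 above and 12.7% with NT4 below. The log2 fold change was positive for 4 genes and negative for 6, with a median of −0.05 beside 0.0045 over all genes. Summed over the 10 genes, the level was 977 and 987 CPM in Control and 1005 and 931 CPM in NT4, so the groups overlapped.

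**Figure D3:**
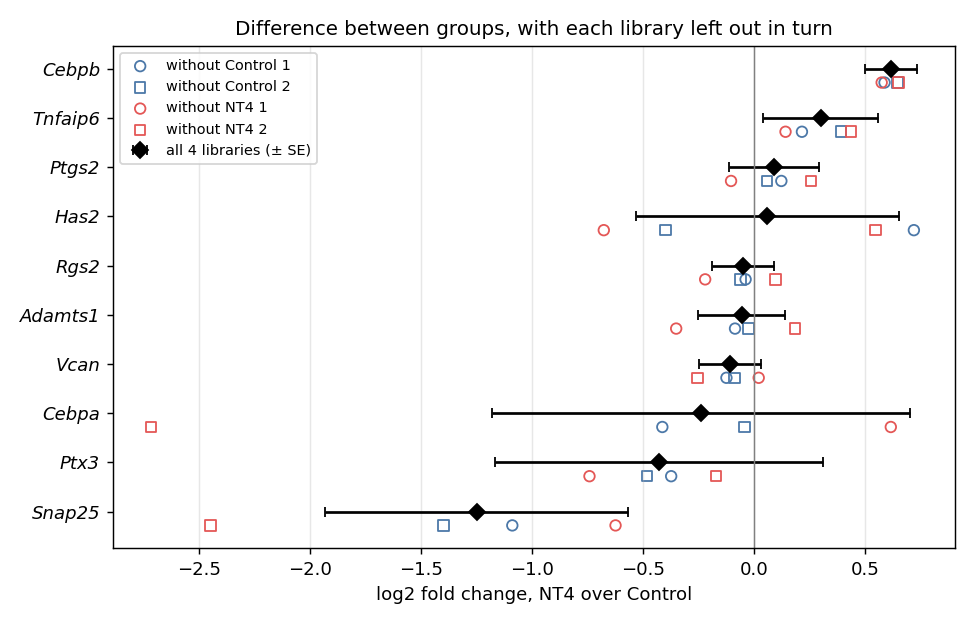
Log2 fold change of NT4 over Control for the 10 genes, with the black diamond and bar giving the estimate from all 4 libraries ± SE and the open symbols the estimate without 1 library. Cebpb stays between 0.58 and 0.65 in all 4 of these, whereas Cebpa moves from −2.72 to 0.62 and Has2 from −0.68 to 0.72.

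Genes with a profile like that of Has2 and Cebpb were then looked up among the other 14333 tested genes with a mean CPM of at least 1, zeros in single libraries allowed, by the distance between log2 CPM profiles centred over the 4 libraries. This is a description of 4 points that share their libraries. Closest to Has2 was Smad2, a transducer of TGF-beta signals, at 102.5, 46.9, 103.5 and 47.1 CPM (distance 0.0537), followed by Vav3 and Kazald1. In all 4 of these genes the libraries numbered 1 were high and those numbered 2 low. Closest to Cebpb was Ptgr2, a prostaglandin reductase, at 19.7 and 20.7 CPM in Control and 31.4 and 29.0 CPM in NT4 (distance 0.0522), followed by Gm19196 and Pcdhga6.

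The genes that act before and after the 10 were described from 9 hand-written lists with 105 genes. Of these, 85 had a CPM of at least 1 in every library. Of the 102 that were tested, 1 was higher and 1 lower in NT4 at an unadjusted p under 0.05, which is 1.96% beside 1.99% of all genes, and 0 passed the adjustment. Their median log2 fold change was 0.05, and the medians of the 9 lists ran from −0.08 in matrix partners to 0.34 in the late ovulatory targets.

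The receptors that carry the surge were present in both groups. Lhcgr, the LH receptor, was at 55.6 and 64.7 CPM in Control and at 72.5 and 73.8 CPM in NT4. It is shared by theca cells, and its mean level per length was 22.8 TPM. The immediate early gene Egr1 was abundant at 796, 679, 689 and 1197 CPM, and the groups overlapped. In this list of 16 genes, Creb1, the factor that binds cyclic AMP response elements, was called higher. It was at 25.4 and 25.7 CPM in Control and at 53.4 and 45.2 CPM in NT4, without overlap (log2 fold change 0.95, SE 0.15, edgeR adjusted p = 0.817).

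Of the 8 genes of the EGF-like signal, 0 were called. Areg, which encodes amphiregulin, ranged from 0.623 to 0.770 CPM. Btc, which encodes betacellulin, ranged from 1.84 to 3.79 CPM. Ereg, which encodes epiregulin, was at 6.97 and 10.6 CPM in Control and at 13.0 and 11.1 CPM in NT4, so that both NT4 libraries lay above both Control libraries. Per length, the means were 1.53 TPM for Areg, 1.77 TPM for Btc and 6.63 TPM for Ereg.

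Of the 15 matrix partners, 1 was called. Ambp, which encodes the light chain of inter-alpha-trypsin inhibitor, was at 5.96 and 2.21 CPM in Control and at 1.56 and 1.505 CPM in NT4 (log2 fold change −1.41, SE 0.52, edgeR adjusted p = 0.99994). Its Control libraries differed from each other more than Control 2 did from NT4. The other hyaluronan synthases had lower mean levels than Has2, with 0.228 TPM for Has1 and 0.547 TPM for Has3, whose exons overlap Chtf8. The link protein gene Hapln1 was at 0.233 TPM. The hyaluronan receptor gene Cd44 was at 3.32 TPM and the inter-alpha-trypsin inhibitor heavy chain gene Itih2 at 13.4 TPM.

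Among 12 ovulatory proteases and their inhibitors, 10 prostaglandin genes and 14 ovulatory transcription factors, 0 were called. Ptges, which makes prostaglandin E from the product of Ptgs2, was at 266 TPM, and its receptor gene Ptger2 at 1.66 TPM. Pgr, the progesterone receptor that LH induces in mural GCs, was at 0.797, 2.50, 2.37 and 1.05 CPM, with overlapping groups. Its mean was 0.519 TPM, while Nrip1, a co-regulator needed for ovulation, had a mean of 42.6 TPM, Runx1 of 5.201 TPM and Cebpd, whose exons overlap Spidr, of 3.47 TPM.

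Of 11 genes that act late in ovulation or under Pgr, 8 were tested and 0 were called, and Il6 was at 0 in all 4 libraries. Star, which brings cholesterol into mitochondria, had a mean of 21.3 TPM. Cyp11a1, which makes pregnenolone there and shares exon bases with Gm17322, had a mean of 121 TPM. The part of theca cells in the levels of Star and Cyp11a1 was not tested. Of 11 secretion partners of Snap25, 0 were called. Snap23, the relative of Snap25 found in most tissues, was even at 41.9 to 44.5 CPM, with a mean of 26.7 TPM beside 0.339 TPM for Snap25. Of 8 oocyte factors and their targets in GCs, 0 were called.

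**Figure D4:**
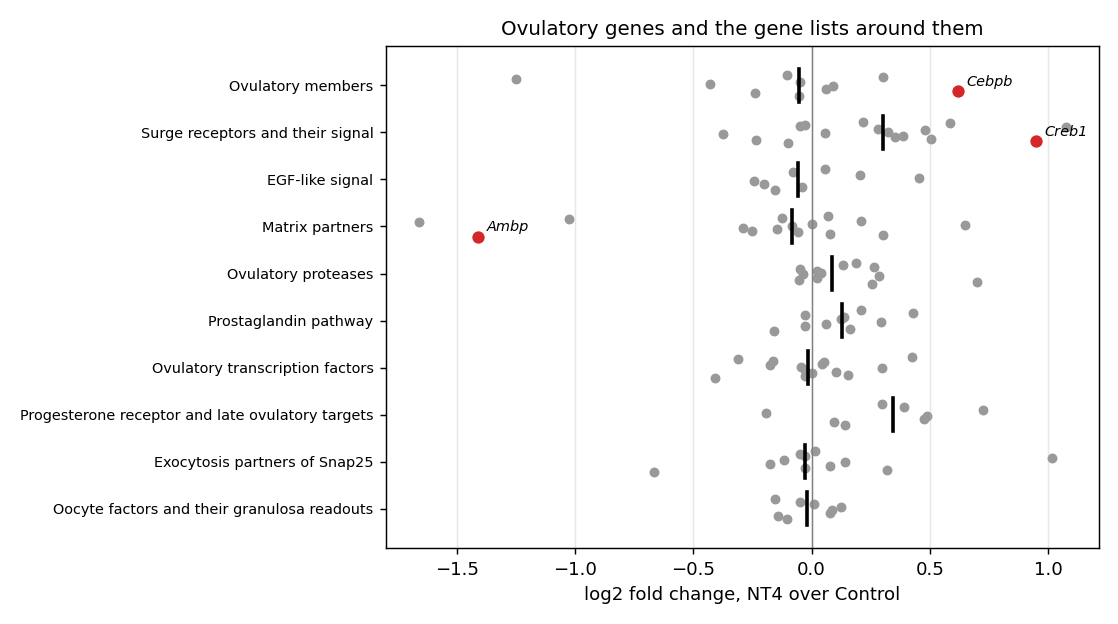
Log2 fold change of NT4 over Control for every tested gene of the 10 ovulatory genes and the 9 lists around them, 1 point per gene, with a black bar at the median of each list. Red marks the genes with an unadjusted p under 0.05, which are Cebpb (0.62), Creb1 (0.95) and Ambp (−1.41).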

How the data were processed

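The authors' processing used Cutadapt to drop reads with adaptor or low-quality bases, HISAT2 to map them to the mouse genome of Ensembl v99 (GRCm38, mm10 in the submitters' processing notes) and StringTie and ballgown to estimate expression. The deposited values are expected counts per gene, estimated counts that were already whole numbers and not normalized. Libraries kept strand by dUTP marking, and whether counting used strand, or how whole counts were made, is not stated. Between 45.4% and 46.2% of counts from 1 to 12 sat at 4, 8 or 12 per library, so a read pair was taken as 4 counts. The counts of single libraries and the series table were identical in 4 of 4 libraries.

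Of 55385 identifiers, 55144 matched a symbol in GENCODE M21, which gave coordinates and exon lengths for TPM. Groups followed the labels. The 2 groups of 2 libraries were compared in R 4.3.3 with the 2-sided quasi-likelihood test of edgeR 4.0.16. It used TMM scaling, the default filter on low counts, the group alone in the model and Benjamini-Hochberg adjustment over 19259 genes. The fits were also run on simulated counts with the same spread beyond counting error for every gene and no effect of the replicate number. That run cannot show how the test fares where the spread differs between genes. Unadjusted and adjusted p-values measure the spread between these libraries only. The alternatives were other scaling, filters and tests (DESeq2 1.42.0, edgeR's exact test, voom of limma 3.58.1), the replicate number as a block, counts divided by 4 and each library left out. The text names all 10 genes, 20 pathway genes fixed by name (1 is not reported here), list genes with an unadjusted p under 0.05, and for Has2 and Cebpb the 3 genes of closest profile. Other genes named give context and were chosen after their values were seen. Lists, like the members, were chosen with earlier results of these data known.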

Additional observations from a re-analysis of the deposited data

How the results depend on the processing

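The 10 genes gave 128 log2 fold changes under other settings, of which 120 gave the same sign and stayed above an adjusted p of 0.05, 1 passed it (Cebpb, 0.61 in the DESeq2 Wald test) and 7 changed sign, each with a library left out. Leaving out a library gave ranges of −0.68 to 0.72 for Has2 (−0.40 without Control 2, −0.68 without NT4 1), −0.10 to 0.26 for Ptgs2, −0.35 to 0.18 for Adamts1, −0.26 to 0.021 for Vcan (positive without NT4 1), −2.72 to 0.62 for Cebpa and −0.22 to 0.10 for Rgs2. Of the 10 genes, 1 to 3 then had an unadjusted p under 0.05. Without NT4 1 these were Adamts1, Cebpa and Cebpb, where 4.24% of all genes were called. Without NT4 2 they were Cebpa, Cebpb and Snap25, where 3.63% were. These fits lend the spread of the complete group to a library left alone. The count of genes past an adjusted p of 0.05, which was 0, became 10 without a filter, 65 with DESeq2 and 59 with the exact test, and 0 to 37 with a library left out (12 without Control 1, 37 without Control 2). The 208 genes past the study's criterion became 345 without a filter, 87 with a CPM of at least 1 in 2 libraries, 119 with counts divided by 4, and 341 to 512 with a library left out. Ptx3 was not tested under the CPM filter or with counts divided by 4, since it fell under the filter. Of the 10 genes, 8 had a CPM of at least 0.5 in every library, 6 of at least 5, and 8 of at least 1 without NT4 2. With library totals, 5 in place of 4 had groups that did not overlap. With the replicate number as a block, 0 genes passed the adjustment, 580 had an unadjusted p under 0.05 in place of 383, and 180 passed the study's criterion. Cebpb was at 0.62 under this block (adjusted p = 0.746) and Cebpa at −1.004, and 0 of the 10 genes changed their call. Between Control 1 and NT4 1, deviations from the group mean correlated with r = 0.14 (rho = 0.26) over 19259 genes, and with r = 0.31 (rho = 0.44) over 10491 genes that averaged above 3 in log2 CPM. Genes are not replicates. No label states a pairing, and 2 numbers are too few to establish one. Depth limits Ptx3, Snap25 and Has2, whose values rest on 4 to 36 read pairs.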
